A study of Mus musculus with 12 samples.

Results

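The liver senses bile acids, fatty acids, oxysterols, drugs and hormones through nuclear receptors, and 10 genes of this family were followed here in adult mouse livers that lack YAP, a coactivator of the TEAD transcription factors. The members were chosen by name, as the receptors that set bile acid, lipid, xenobiotic and hormone metabolism in hepatocytes, and are 10 of the 41743 genes in the deposited tables. All are annotated as protein coding, and they are Nr1h4 (FXR), Nr0b2 (SHP), Nr1i2 (PXR), Nr1i3 (CAR), Ppara (PPARα), Nr1h3 (LXRα), Rxra (RXRα), Nr5a2 (LRH-1), Esr1 (ERα) and Thrb (TRβ). RNA-seq was done on whole frozen livers of female mice aged 3 to 4 months, in 4 groups of 3 mice. YAP KO mice carried Foxa3-Cre, floxed Yap1 on both alleles and a ROSA-stop fl/fl-EYFP reporter on the C57BL/6 strain, and were set against WT littermates of that strain. YAP KO TAZ HET mice carried Foxa3-Cre with both Yap1 alleles and 1 Wwtr1 allele (the gene of TAZ) deleted, on a mixed C57BL/6-FVB strain, and were set against WT littermates of that strain. The Foxa3 promoter drives Cre in the foregut endoderm, from which hepatocytes and bile duct cells arise, and whole liver RNA does not show in which cells Yap1 remained. Strain, litter, the source line of floxed Yap1 and the second gene differ together between the models and cannot be told apart. The paper names the reporter for YAP KO only.

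FXR is the nuclear sensor of bile acids, and SHP, which has no DNA-binding domain of its own, is the repressor that FXR induces to shut down bile acid synthesis. PXR and CAR sense drugs and other foreign compounds and switch on cytochrome P450 genes, PPARα senses fatty acids and drives their oxidation, and LXRα senses oxysterols and drives sterol export and lipogenesis. FXR, PXR, CAR, PPARα and LXRα bind DNA as partners of RXRα, as TRβ does, whereas LRH-1 binds as a monomer and the estrogen receptor as a homodimer.

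Values are TPM (transcripts per 1000000), a share of all transcripts corrected for gene length, so levels can be compared between genes. The files hold no read counts, and the study's methods state 1 nominal read number for all samples, so the reads behind each library are not known here. Levels below are deposited TPM, while log2 fold changes come from limma on log2 of TPM plus 1 after each library was divided by a scaling factor (trimmed mean of log ratios to a reference library of the same fit). These factors were 0.857 to 0.947 in the WT livers and 1.075 to 1.227 in the knockout livers, so a gene with equal TPM in both comes out lower after scaling. Without scaling the median log2 difference of all tested genes was 0.278 for YAP KO instead of -0.041, and 0.244 for YAP KO TAZ HET instead of -0.0402. The share of calls that were higher was then 84% instead of 51.1%, and 82.2% instead of 50.2%. Yap1 was at 28.2 to 30.5 TPM in the C57BL/6 WT livers and 1.67 to 3.72 TPM among YAP KO livers, and at 31.0 to 33.2 TPM in the mixed WT livers and 8.63 to 11.5 TPM among YAP KO TAZ HET livers. Wwtr1 was at 6.26 to 6.83 TPM against 13.3 to 16.7 TPM among YAP KO livers, where it rose, and at 7.73 to 8.38 TPM against 11.5 to 14.1 TPM among YAP KO TAZ HET livers, where its log2 fold change of 0.26 did not pass (limma adjusted p = 0.0743). The liver identity of the samples was clear from 7 hepatocyte markers (Alb, Apoa1, Apob, Ttr, Hnf4a, Fga and Ahsg). Their summed level, most of it Alb, was 90200 to 115000 TPM in WT and 88500 to 104000 TPM in the knockout livers. The summed level of 6 macrophage markers was 122 to 238 TPM in WT against 335 to 563 TPM in the knockout livers, and all 6 rose in both models. Of 7 bile duct cell markers, Krt7 and Cftr were under 1 TPM in every library, and the sum, most of it Spp1, was 36.7 to 66.9 TPM in WT against 110 to 759 TPM in the knockout livers. In whole tissue, fewer cells of a type and less RNA per cell cannot be told apart, and the part of these shifts in the receptor values was not tested. Each group holds separate mice, so the p-values rest on the spread between 3 mice a group. For limma that spread is moderated by a trend over all tested genes.

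Promoter windows of the receptors were taken from RefSeq (GRCm38.p6), from 250 bases before to 50 bases after each annotated start. All 10 genes matched, with 15 windows in all. The only Nr1h4 window lies well inside the gene as annotated here (chr10:89454234-89533585, minus strand), so its outermost start was not searched. They are shown for the 4 receptors whose fall held under every setting tried, Nr1h4, Nr1i3, Ppara and Esr1, and for Nr1i2, which passed under none. Esr1 has 2 annotated windows, and both are shown. Capitals mark matches, on either strand, to the TEAD motif GGAATG and to the nuclear receptor half-site AGGTCA.
Nr1h4 (chr10:89506609-89506908, minus strand): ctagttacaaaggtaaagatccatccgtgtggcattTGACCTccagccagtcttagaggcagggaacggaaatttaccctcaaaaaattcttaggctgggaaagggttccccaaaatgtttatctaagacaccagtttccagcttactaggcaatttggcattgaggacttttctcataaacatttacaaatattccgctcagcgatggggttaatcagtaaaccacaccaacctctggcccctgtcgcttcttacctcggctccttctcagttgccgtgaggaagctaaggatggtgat
Nr1i3 (chr1:171213720-171214019, plus strand): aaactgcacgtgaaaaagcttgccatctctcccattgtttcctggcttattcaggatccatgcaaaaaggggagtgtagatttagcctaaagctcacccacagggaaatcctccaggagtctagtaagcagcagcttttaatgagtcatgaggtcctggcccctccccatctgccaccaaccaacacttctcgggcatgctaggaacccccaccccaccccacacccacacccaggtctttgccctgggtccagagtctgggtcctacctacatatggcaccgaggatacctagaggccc
Ppara (chr15:85735526-85735825, plus strand): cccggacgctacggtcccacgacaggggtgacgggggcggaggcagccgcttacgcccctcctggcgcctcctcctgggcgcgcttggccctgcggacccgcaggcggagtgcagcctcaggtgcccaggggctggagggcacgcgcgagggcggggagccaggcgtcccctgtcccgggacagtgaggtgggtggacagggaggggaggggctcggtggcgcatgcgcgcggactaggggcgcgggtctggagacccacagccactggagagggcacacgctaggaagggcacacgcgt
Esr1 (chr10:4611739-4612038, plus strand): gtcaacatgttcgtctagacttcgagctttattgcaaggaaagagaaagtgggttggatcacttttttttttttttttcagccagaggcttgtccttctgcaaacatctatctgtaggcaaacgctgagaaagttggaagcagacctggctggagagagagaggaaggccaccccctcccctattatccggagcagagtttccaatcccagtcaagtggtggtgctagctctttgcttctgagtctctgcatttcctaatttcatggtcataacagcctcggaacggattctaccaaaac
Esr1 (chr10:4709908-4710207, plus strand): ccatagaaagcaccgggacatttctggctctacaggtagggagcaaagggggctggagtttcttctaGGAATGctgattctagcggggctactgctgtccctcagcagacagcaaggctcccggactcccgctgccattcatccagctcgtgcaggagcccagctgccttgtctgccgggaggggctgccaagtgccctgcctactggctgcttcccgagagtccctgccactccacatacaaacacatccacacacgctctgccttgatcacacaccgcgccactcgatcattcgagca
Nr1i2 (chr16:38294775-38295074, minus strand): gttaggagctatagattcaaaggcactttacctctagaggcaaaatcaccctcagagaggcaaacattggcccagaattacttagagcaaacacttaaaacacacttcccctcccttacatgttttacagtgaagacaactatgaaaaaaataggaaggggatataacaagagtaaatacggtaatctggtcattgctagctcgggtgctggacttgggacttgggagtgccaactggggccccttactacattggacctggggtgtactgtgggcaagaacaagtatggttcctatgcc
The TEAD letters were in 14.7% of all 32817 mouse promoter windows of this length and in 3 of the 15 receptor windows, one each of Esr1, Nr5a2 and Thrb. In the second Esr1 window the match began at position -183 from the start. The half-site letters were in 16.3% of all windows and in 4 receptor windows, one each of Nr1h4, Nr5a2, Rxra and Thrb, with the Nr1h4 match beginning at position -214 from the start, on the opposite strand to the gene. Perfect direct repeats of the half-site with 1 or 4 bases between (0.0396% and 0.0152% of windows) and its perfect inverted repeat with 1 base between (0.00914%) were in none of the 15. The windows of Nr1i3, Ppara and Nr1i2 and the first Esr1 window held none of these letters.

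Most of the 10 receptors fell in both models. In YAP KO livers 7 of the 10 fell, none rose and 3 did not pass, where 18% of the 11704 tested genes were lower and 36.7% were called in either direction. In YAP KO TAZ HET livers 9 of the 10 fell, none rose and 1 did not pass, where 19% of the 11741 tested genes were lower and 38.2% were called in either direction. The 7 receptors that fell in both models were Nr1h4, Nr1i3, Ppara, Nr1h3, Rxra, Esr1 and Thrb, while 13% of genes tested in both were lower in both. The median log2 fold change of the 10 was -0.552 for YAP KO and -0.696 for YAP KO TAZ HET, against -0.041 and -0.0402 over all tested genes. These counts depended on the scaling. On TPM without scaling 4 and 5 of the 10 were lower, where 7.13% and 7.55% of tested genes were lower and 37.5% and 34.8% higher. After scaling to the hepatocyte markers, an alternative chosen after seeing the data, 4 and 5 were lower, where 9.05% and 11.2% of tested genes were. Nr1h4, Nr1i3, Ppara and Esr1 were lower past the threshold in both models under each of the 14 alternatives. In deposited TPM 5 receptors had no overlap with WT in YAP KO, all of them lower. Of all tested genes 56.7% had no overlap there, 9.29% lower and 47.5% higher. In YAP KO TAZ HET 6 receptors had no overlap and were lower, and 1, Nr1i2, had no overlap and was higher. Of all tested genes 54.5% had no overlap there, 10% lower and 44.4% higher. With 3 mice against 3 an exact two-sided permutation test on TPM cannot go below p = 0.1, and each of the comparisons without overlap had that value.

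**Figure D1:**
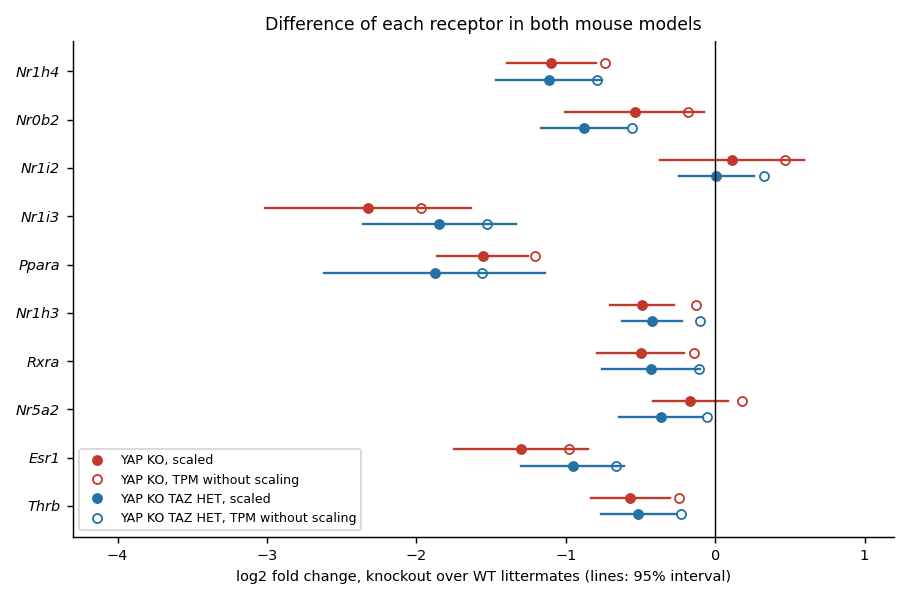
Log2 fold change (x axis) of each of the 10 receptors (y axis) against WT littermates, with filled points and 95% interval lines after scaling and open points for TPM without scaling. Nr1i3, Ppara, Nr1h4 and Esr1 lie left of 0 on both scales in both models, whereas the open points of Nr1h3, Rxra, Thrb and Nr5a2 lie near 0.

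Nr1h4 (chr10:89454234-89533585, minus strand, GRCm38), the bile acid sensor, stood at 97.3, 126 and 128 TPM in the C57BL/6 WT livers and at 60.2, 73.0 and 75.8 TPM among YAP KO livers. In the mixed WT livers it stood at 113.5, 113.6 and 114.1 TPM, and in the YAP KO TAZ HET livers at 53.3, 59.4 and 87.5 TPM. Every knockout liver lay below every WT liver of its own comparison. Mean deposited TPM of Nr1h4 was 0.595 times that of WT in YAP KO and 0.587 times in YAP KO TAZ HET. Nr1h4 fell after scaling to 0.468 times its WT level in YAP KO (log2 fold change -1.10 ± 0.13 SE, limma adjusted p = 0.000513) and to 0.463 times in YAP KO TAZ HET (-1.11 ± 0.15, limma adjusted p = 0.00102). Hnf4a, the nuclear receptor that defines the hepatocyte, served as a reference inside each library, a choice made after the values were seen. It did not pass the test, with log2 fold changes of -0.07 (limma adjusted p = 0.746) and -0.11 (limma adjusted p = 0.545). Mean deposited TPM of Hnf4a was 1.215 times that of WT in YAP KO and 1.174 times in YAP KO TAZ HET, with overlap in both. The ratio to it therefore holds this difference as well as the fall of Nr1h4. The ratio of Nr1h4 to Hnf4a TPM, which no scaling can change, was 0.579 ± 0.025 (SD, n = 3) in C57BL/6 WT and 0.284 ± 0.039 in YAP KO, and 0.553 ± 0.034 in mixed WT and 0.275 ± 0.031 in YAP KO TAZ HET, without overlap in either (exact permutation p = 0.1, the smallest possible).

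Nr0b2 (chr4:133553376-133556536, plus strand), the repressor that FXR induces, was at 42.1, 56.4 and 64.0 TPM in C57BL/6 WT and at 39.1, 46.0 and 57.6 TPM among YAP KO livers, and these groups overlapped. It was at 76.7, 79.1 and 81.0 TPM in mixed WT and at 44.7, 54.7 and 61.7 TPM among YAP KO TAZ HET livers, which lay wholly below. Its log2 fold change was -0.54 ± 0.20 in YAP KO, short of the threshold (limma adjusted p = 0.0706), and it fell by 0.88 ± 0.13 in YAP KO TAZ HET (limma adjusted p = 0.00115). The YAP KO value passed when the WT liver LM75 was left out (log2 fold change -0.68, limma adjusted p = 0.0374) or the YAP KO liver LM191 (-0.70, limma adjusted p = 0.0374), and in the fit to all 12 libraries (-0.55, limma adjusted p = 0.0302). The difference between the models was 0.33 (95% interval -0.22 to 0.89), so the pass in one and not in the other does not show that they differ.

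**Figure D2:**
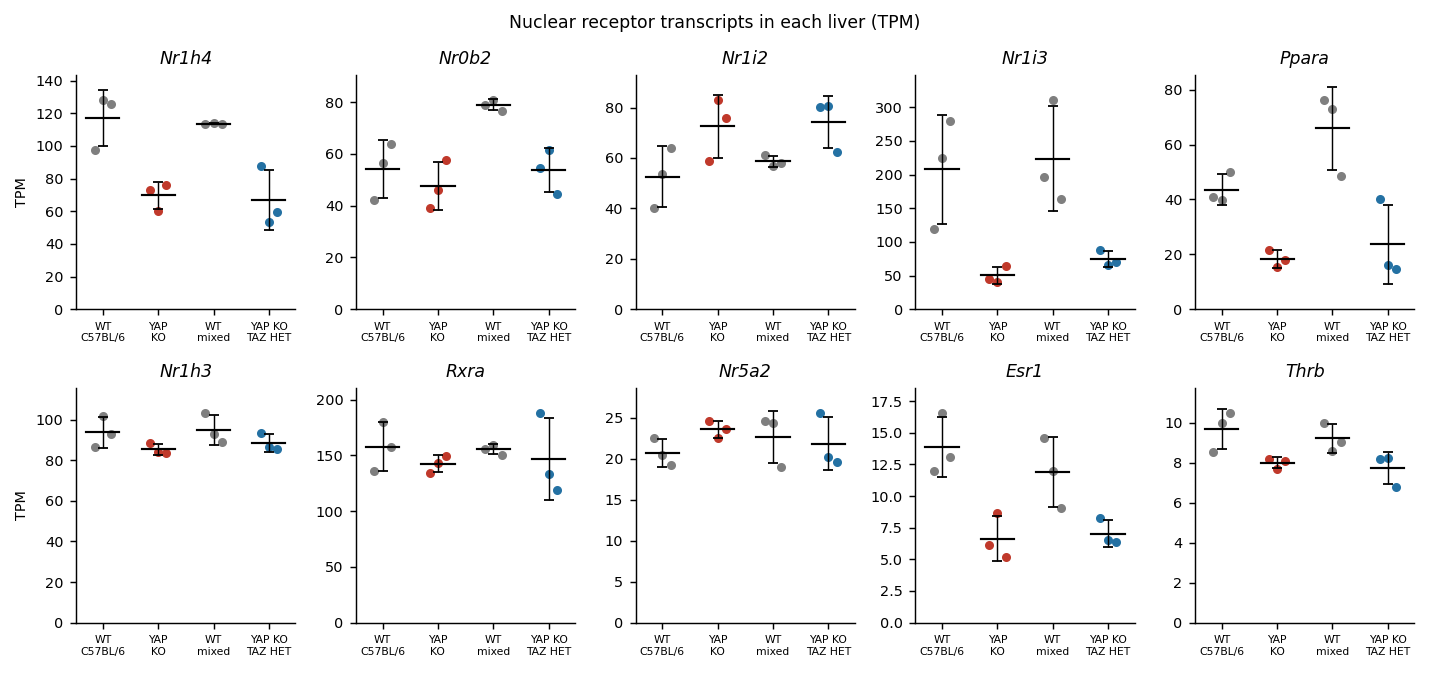
TPM (y axis, from 0) of each receptor in every liver of the 4 groups (x axis), with points for single mice and bars for the mean ± SD of 3. Nr1i3 lies at 120 to 311 TPM in the WT livers and at 41.0 to 88.7 TPM in the knockout livers, whereas Nr1i2 lies between 40.1 and 83.1 TPM throughout.

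Nr1i3, the constitutive androstane receptor, had the largest fall of the 10 in YAP KO. It was at 120, 224 and 280 TPM in C57BL/6 WT and at 41.0, 45.5 and 64.4 TPM among YAP KO livers. It was at 164, 197 and 311 TPM in mixed WT and at 66.1, 69.6 and 88.7 TPM among YAP KO TAZ HET livers. The WT livers ranged widely, yet the lowest of them was still above the highest knockout liver. Mean deposited TPM of Nr1i3 was 0.242 times that of WT in YAP KO and 0.334 times in YAP KO TAZ HET. Nr1i3 fell after scaling to 0.2 times its WT level in YAP KO (log2 fold change -2.32 ± 0.30, limma adjusted p = 0.000762) and to 0.278 times in YAP KO TAZ HET (-1.85 ± 0.22, limma adjusted p = 0.000493). Over the 14 alternatives its log2 fold change was -2.65 to -1.97 and -2.02 to -1.53. The gene (chr1:171213970-171220701, plus strand, GRCm38) shares 4691 bases with Tomm40l on the opposite strand, and whether the counting used strand is not given in the sources used here, so reads of the shared stretch cannot be assigned with certainty. Tomm40l itself was at 39.2 to 85.2 TPM in WT and 10.99 to 33.9 TPM in the knockout livers.

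Nr1i2 (chr16:38248323-38294824, minus strand), the pregnane X receptor and the closest partner of CAR in drug sensing, did not pass the test in either model. It was at 40.1, 53.7 and 64.0 TPM in C57BL/6 WT and at 58.8, 75.8 and 83.1 TPM among YAP KO livers, and at 56.9, 58.2 and 61.2 TPM in mixed WT and 62.4, 80.2 and 80.4 TPM among YAP KO TAZ HET livers. In TPM the knockout means were higher, with overlap in YAP KO and none in YAP KO TAZ HET. After scaling its log2 fold change was 0.11 (95% interval -0.37 to 0.59, limma adjusted p = 0.711) and 0.01 (-0.24 to 0.26, limma adjusted p = 0.957), and it passed the threshold under none of the 14 alternatives in either model, with values from -0.04 to 0.47 and from -0.07 to 0.33. Set against each other within a library, the 2 xenobiotic receptors differed more. Nr1i3 TPM over Nr1i2 TPM, a ratio within each library that was chosen after the values were seen, was 2.98, 4.17 and 4.38 in C57BL/6 WT and 0.493, 0.775 and 0.85 in YAP KO. It was 2.81, 3.22 and 5.48 in mixed WT and 0.822, 1.105 and 1.114 in YAP KO TAZ HET. The groups did not overlap in either comparison (exact permutation p = 0.1 for each).

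Ppara (chr15:85734983-85802819, plus strand), the fatty acid sensor, was at 39.7, 40.7 and 49.99 TPM in C57BL/6 WT and at 15.4, 18.0 and 21.7 TPM among YAP KO livers. It was at 48.6, 72.8 and 76.3 TPM in mixed WT and at 14.5, 16.1 and 40.3 TPM among YAP KO TAZ HET livers, where the liver LM225 stood well above the other 2 but below every WT liver. Mean deposited TPM of Ppara was 0.422 times that of WT in YAP KO and 0.359 times in YAP KO TAZ HET. Ppara fell after scaling to 0.34 times its WT level in YAP KO (log2 fold change -1.55 ± 0.13, limma adjusted p = 9.64e-05) and to 0.272 times in YAP KO TAZ HET (-1.88 ± 0.32, limma adjusted p = 0.0027). Without LM225 the second value was -2.28 (limma adjusted p = 8.94e-05). LM225 was the highest of its group in 7 of the 10 receptors and LM251 the lowest in 8, while among the C57BL/6 WT livers LM75 was the lowest in 8.

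Nr1h3 (chr2:91184061-91202834, minus strand), the oxysterol receptor, and Rxra (chr2:27676440-27762957, plus strand), the shared partner, differed less. Nr1h3 was at 86.7, 92.8 and 102 TPM in C57BL/6 WT, 83.5, 84.0 and 88.7 TPM among YAP KO livers, 89.1, 92.9 and 103 TPM in mixed WT and 85.5, 86.4 and 93.4 TPM among YAP KO TAZ HET livers, with overlap in both comparisons. After scaling it fell by 0.49 ± 0.09 (limma adjusted p = 0.00459) and by 0.42 ± 0.09 (limma adjusted p = 0.00653) on the log2 scale, but on TPM without scaling the values of -0.13 and -0.10 did not pass (limma adjusted p = 0.286 and 0.439). With hepatocyte scaling neither call held (limma adjusted p = 0.0699 and 0.106), and with quantile normalization the second was lost (limma adjusted p = 0.0857). Rxra was at 136, 158 and 179.8 TPM in C57BL/6 WT, 134, 143 and 149.9 TPM among YAP KO livers, 151, 156 and 159.6 TPM in mixed WT and 119, 133 and 188 TPM among YAP KO TAZ HET livers, again with overlap. After scaling it fell by 0.50 ± 0.13 (limma adjusted p = 0.0168) and by 0.43 ± 0.14 (limma adjusted p = 0.0443), and without scaling the values were -0.14 and -0.11 (limma adjusted p = 0.356 and 0.615). Both calls were also lost with quantile normalization (limma adjusted p = 0.106 and 0.518) and with hepatocyte scaling (0.0923 and 0.154), and the second without a filter on low genes (0.0631). The Rxra call in YAP KO was lost without the WT liver LM192 (limma adjusted p = 0.0617), and in YAP KO TAZ HET it was lost without any one of LM226, LM227, LM230, LM250 and LM251 (limma adjusted p from 0.07 to 0.161).

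The 6 receptors that pair with RXRα here (Nr1h4, Nr1i2, Nr1i3, Ppara, Nr1h3 and Thrb) were then summed in each library and divided by Rxra, a measure that no scaling can change and that was chosen after the values were seen. The ratio was 2.89, 3.10 and 3.94 in C57BL/6 WT and 2.03, 2.17 and 2.20 in YAP KO. It was 3.20, 3.59 and 4.12 in mixed WT and 2.12, 2.33 and 2.50 in YAP KO TAZ HET, so that all knockout livers lay below all WT livers of their comparison (exact permutation p = 0.1 for each). Rxra made up 80.4% to 86.9% of the summed TPM of the 3 RXR genes in every liver. The sum of the 3 was 185.9 ± 19.9 TPM (SD, n = 3) in C57BL/6 WT and 174.7 ± 9.0 in YAP KO, and 183.6 ± 6.3 in mixed WT and 175.4 ± 38.7 in YAP KO TAZ HET, differences within the spread between mice.

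**Figure D3:**
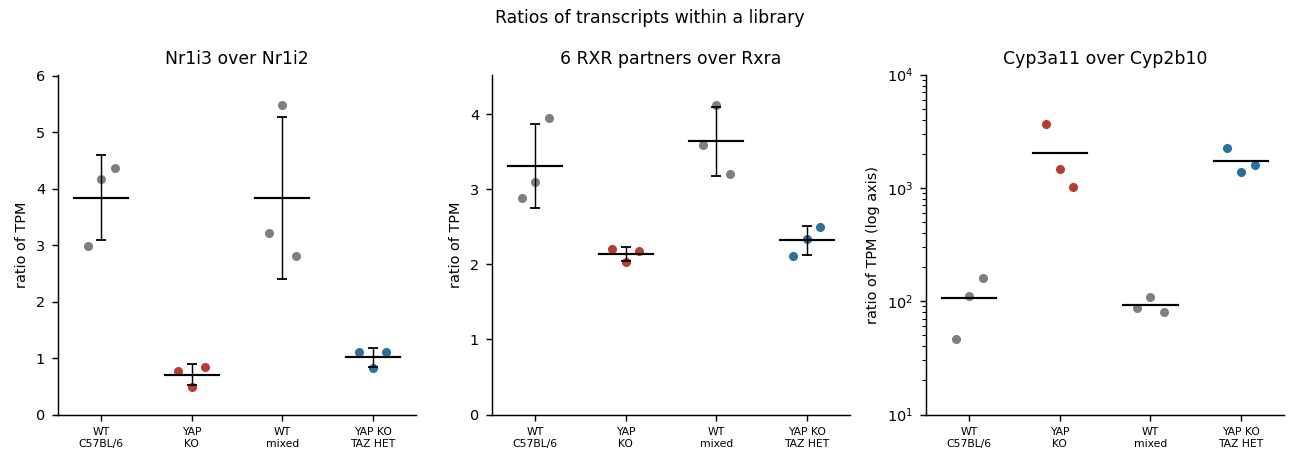
Ratios of TPM within each library (y axis, a log axis for the right panel only) in the 4 groups (x axis), with points for single mice, horizontal bars for means and, in the left and middle panels, SD. Nr1i3 over Nr1i2 is 2.81 or more in every WT liver and 1.114 or less in every knockout liver, and Cyp3a11 over Cyp2b10 is 161 or less in WT and 1017 or more in the knockout livers.

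Esr1 (chr10:4611593-5005614, plus strand), the estrogen receptor that reads the female hormone state, was at 11.98, 13.1 and 16.6 TPM in C57BL/6 WT and at 5.15, 6.13 and 8.63 TPM among YAP KO livers, and at 9.05, 11.99 and 14.6 TPM in mixed WT and 6.37, 6.51 and 8.23 TPM among YAP KO TAZ HET livers. Neither comparison overlapped. Mean deposited TPM of Esr1 was 0.478 times that of WT in YAP KO and 0.592 times in YAP KO TAZ HET. Esr1 fell after scaling to 0.406 times its WT level in YAP KO (log2 fold change -1.30 ± 0.19, limma adjusted p = 0.00157) and to 0.516 times in YAP KO TAZ HET (-0.95 ± 0.15, limma adjusted p = 0.00179). Thrb (chr14:17660261-18038090, plus strand), the thyroid hormone receptor of hepatocytes, was at 8.56, 9.97 and 10.5 TPM in C57BL/6 WT and 7.69, 8.11 and 8.21 TPM among YAP KO livers, and at 8.58, 9.06 and 10.01 TPM in mixed WT and 6.80, 8.19 and 8.23 TPM among YAP KO TAZ HET livers, again without overlap though by a narrow margin. It fell by 0.57 ± 0.11 (limma adjusted p = 0.00629) and by 0.51 ± 0.11 (limma adjusted p = 0.00707), and both calls were lost without scaling (-0.24 and -0.23, limma adjusted p = 0.151 and 0.198) and with hepatocyte scaling (limma adjusted p = 0.0515 and 0.064). Nr5a2 (chr1:136842571-136960448, minus strand), the monomeric receptor that maintains bile acid synthesis, was at 19.2, 20.5 and 22.6 TPM in C57BL/6 WT, 22.6, 23.6 and 24.6 TPM among YAP KO livers, 19.0, 24.4 and 24.7 TPM in mixed WT and 19.7, 20.3 and 25.6 TPM among YAP KO TAZ HET livers. Its log2 fold change of -0.17 in YAP KO (limma adjusted p = 0.266) turned to 0.18 without scaling. In YAP KO TAZ HET it fell by 0.36 ± 0.12 (limma adjusted p = 0.048), a call lost without scaling (-0.05, limma adjusted p = 0.802), with quantile normalization (0.0923), with hepatocyte scaling (0.293), without a filter (0.0623) and without any one of LM226, LM227, LM250 and LM251 (limma adjusted p from 0.115 to 0.152).

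The order of the receptors by mean TPM changed with these falls. In both WT groups Nr1i3 led (208 and 224 TPM), followed by Rxra (158 and 156), Nr1h4 (117 and 114) and Nr1h3 (93.8 and 95.2), while the range of Nr1i3 overlapped that of Rxra in C57BL/6 WT but not in mixed WT. Nr1h4 and Nr1h3 overlapped in C57BL/6 WT and did not in mixed WT. In both knockout groups Rxra (143 and 147 TPM) and Nr1h3 (85.4 and 88.5) led. Nr1i3 came below Nr1i2 and Nr1h4 in YAP KO, at 50.3 TPM, its range overlapping those of Nr1h4 above and Nr0b2 below. It came next after Nr1h3 in YAP KO TAZ HET, at 74.8 TPM, with a range that overlapped its neighbours Nr1h3 and Nr1i2. The lowest receptor was Thrb in WT (9.67 and 9.21 TPM) and Esr1 in the knockout groups (6.64 and 7.04), and the ranges of Thrb and Esr1 overlapped in mixed WT and in both knockout groups. The 10 together made up 771 ± 145 TPM in C57BL/6 WT against 525 ± 33 in YAP KO, and 836 ± 98 in mixed WT against 565 ± 98 in YAP KO TAZ HET (SD, n = 3 each, exact permutation p = 0.1 for both).

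The 2 WT groups lie in separate tables, but TPM is set within each library. None of the 10 receptors passed the limma test between these groups, where 24 of 11126 genes did (0.216%, with 0.171% higher and 0.0449% lower on the mixed strain, and 649 genes at an unadjusted p under 0.05). At an unadjusted p under 0.05 there were 2 receptors, Nr0b2 (54.2 ± 11.1 against 78.9 ± 2.1 TPM, log2 difference 0.50, limma adjusted p = 0.596) and Ppara (43.5 ± 5.7 against 65.9 ± 15.1 TPM, 0.51, limma adjusted p = 0.712), both higher on the mixed strain. Nr0b2 was also the 1 receptor whose TPM did not overlap between the WT groups, where 8.42% of genes were higher without overlap and 3.29% lower. The fall in YAP KO did not differ past the threshold from that in YAP KO TAZ HET for any receptor (limma adjusted p = 0.9986 for each, none at an unadjusted p under 0.05), where 8 of 12159 genes did (0.0658%, with 0.0247% in the upward and 0.0411% in the downward direction, and 557 at an unadjusted p under 0.05). The widest intervals were those of Nr1i3, with a difference of -0.48 (95% interval -1.40 to 0.43), and Ppara, with 0.31 (-0.54 to 1.16). The narrowest was that of Nr1h3, at -0.07 (-0.31 to 0.17).

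Known target genes of each receptor, in lists set from background knowledge, were counted next. Beside them, 18.8% of all tested genes rose and 18% fell in YAP KO, and 19.2% and 19% in YAP KO TAZ HET. Without scaling 37.5% rose and 7.13% fell, and 34.8% and 7.55%. Genes induced by PPARα, most of them enzymes of fatty acid uptake and oxidation, were mostly lower. Of the 22 listed, 16 fell, 1 rose and 5 did not pass in YAP KO, and 19 fell, 1 rose and 2 did not pass in YAP KO TAZ HET. Their median log2 fold changes were -0.782 and -0.929, and 16 of the 22 fell in both models. Without scaling 12 and 13 fell and 1 rose. Fabp1, which carries fatty acids in the hepatocyte, was at 6267 to 12240 TPM in C57BL/6 WT and 1411 to 1904 TPM among YAP KO livers, and at 7004 to 9816 TPM in mixed WT and 1310 to 1719 TPM among YAP KO TAZ HET livers. It fell by 2.70 ± 0.24 and by 2.72 ± 0.19 on the log2 scale (limma adjusted p = 0.000114 and 3.12e-05). Acot1, an acyl-CoA thioesterase, and Cyp4a10, a fatty acid omega-hydroxylase, fell by 2.81 and 2.72 in YAP KO and by 2.42 and 1.95 in YAP KO TAZ HET, although both have close paralogs between which reads may have been split. The 1 gene that rose was Pdk4, a kinase that shuts off pyruvate dehydrogenase, from 2.26 to 3.71 TPM in C57BL/6 WT to 22.8 to 44.7 TPM in the YAP KO group (log2 fold change 2.66 ± 0.28, limma adjusted p = 0.00029), and from 2.20 to 3.62 TPM in mixed WT to 11.5 to 19.8 TPM among YAP KO TAZ HET livers (1.87 ± 0.23, limma adjusted p = 0.000604).

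The 18 listed genes induced by PXR and CAR split. In YAP KO 7 rose, 5 fell and 6 did not pass, and in YAP KO TAZ HET 5 rose, 10 fell and 3 did not pass, with medians of -0.456 and -0.64. Without scaling 7 rose and 3 fell, and 7 rose and 6 fell. The genes that rose in both models were Cyp2c55, Cyp3a11, Gstm1, Gstm3 and Ephx1, and those that fell in both were Cyp2b10, Cyp2c29, Ugt1a1, Abcc2 and Ces2a. Cyp3a11, the P450 by which PXR activity is usually read, was at 1301 to 2032 TPM in C57BL/6 WT and 7130 to 7492 TPM among YAP KO livers, and at 2126 to 2315 TPM in mixed WT and 6120 to 7968 TPM among YAP KO TAZ HET livers. It rose by 1.75 ± 0.19 and 1.36 ± 0.14 on the log2 scale (limma adjusted p = 0.000312 and 0.000225). Cyp2b10, the P450 by which CAR activity is usually read, went the other way, from 11.6 to 39.7 TPM in C57BL/6 WT to 2.03 to 7.01 TPM among YAP KO livers. On the mixed strain it went from 21.4 to 26.3 TPM in WT to 3.53 to 5.41 TPM among YAP KO TAZ HET livers. It fell by 2.16 ± 0.52 and by 2.56 ± 0.16 (limma adjusted p = 0.013 and 2.12e-05). Cyp3a11 TPM over Cyp2b10 TPM, chosen after the values were seen, was 19.2 times higher in YAP KO than in its WT littermates and 18.8 times higher in YAP KO TAZ HET, with no overlap. Gstm3, a glutathione transferase, was at 65.6 to 95.5 TPM and 62.8 to 128 TPM in the WT groups and at 3941 to 4207 TPM and 3217 to 3987 TPM in the knockout groups, a log2 rise of 5.28 ± 0.15 and 4.86 ± 0.23 (limma adjusted p = 6e-07 and 5.12e-06). Cyp2c55 rose by 3.37 and 3.09. The Cyp3a, Cyp2b, Cyp2c and Gstm genes are families of close copies, so the share of reads given to any one of them is uncertain.

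Genes tied to bile acid sensing were split. Of 11 genes induced by FXR, 10 were tested, of which 4 rose, 2 fell and 4 did not pass in YAP KO, and 3 rose, 2 fell and 5 did not pass in YAP KO TAZ HET, where Nr0b2 was 1 of those that fell. Their medians of 0.139 and 0.0286 were near those of all tested genes, and without scaling 6 rose and 1 fell, and 5 rose and 2 fell. Slc51b, one chain of the basolateral bile acid exporter, was at 0 to 0.299 TPM in C57BL/6 WT and 27.6 to 35.9 TPM among YAP KO livers, and at 0.146 to 3.33 TPM in mixed WT and 20.45 to 32.7 TPM among YAP KO TAZ HET livers (log2 fold change 4.59 ± 0.15 and 3.58 ± 0.45, limma adjusted p = 9.4e-07 and 0.000576). Its partner chain Slc51a stayed under 1 TPM in every liver, at 0.0486 to 0.632, and was not tested. Abcb4, the phospholipid floppase of the bile canaliculus, rose by 1.02 ± 0.12 and 1.08 ± 0.18 (limma adjusted p = 0.000478 and 0.00263), from 90.9 to 139.6 TPM in WT to 266 to 337 TPM in the knockout livers. Apoc2 rose by 1.22 and 1.09, and Slc27a5, which joins coenzyme A to bile acids, fell by 1.09 and 1.31. The bile salt export pump Abcb11, named after its values were seen, had log2 fold changes of 0.36 and 0.27 that did not pass (limma adjusted p = 0.252 and 0.255). In deposited TPM it was at 123 to 232 in C57BL/6 WT and 261 to 297 among YAP KO livers. On the mixed strain it was at 156 to 275 TPM in WT and 287 to 328 TPM among YAP KO TAZ HET livers. It was thus higher without overlap in both, as were 47.5% and 44.4% of tested genes.

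The 3 listed genes that FXR and SHP repress were lower, 2 past the threshold in YAP KO and all 3 in YAP KO TAZ HET, with medians of -2.02 and -1.68. Without scaling 2 passed in each. Slc10a1, the uptake carrier NTCP, was at 507 to 536 TPM and 482 to 579 TPM in the WT groups and at 149 to 198 TPM and 172 to 263 TPM in the knockout groups, a fall of 2.02 ± 0.14 and of 1.68 ± 0.14 (limma adjusted p = 4.48e-05 and 9.38e-05). Cyp8b1, the sterol 12-hydroxylase that sets the share of cholic acid, fell by 2.13 ± 0.55 and by 2.74 ± 0.51 (limma adjusted p = 0.0175 and 0.00399), although its WT livers spread from 54.8 to 273 TPM and from 56.4 to 283 TPM. The knockout livers lay below all of these, at 38.5 to 49.96 TPM and 23.8 to 28.7 TPM. Cyp7a1, the rate-limiting enzyme of bile acid synthesis and the third of the list, overlapped between knockout and WT in both comparisons, with values of 40.1 to 149 TPM against 80.9 to 240.1 TPM. Its log2 fold change of -0.99 did not pass in YAP KO (limma adjusted p = 0.107), and it fell by 1.59 in YAP KO TAZ HET (limma adjusted p = 0.0381).

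**Figure D4:**
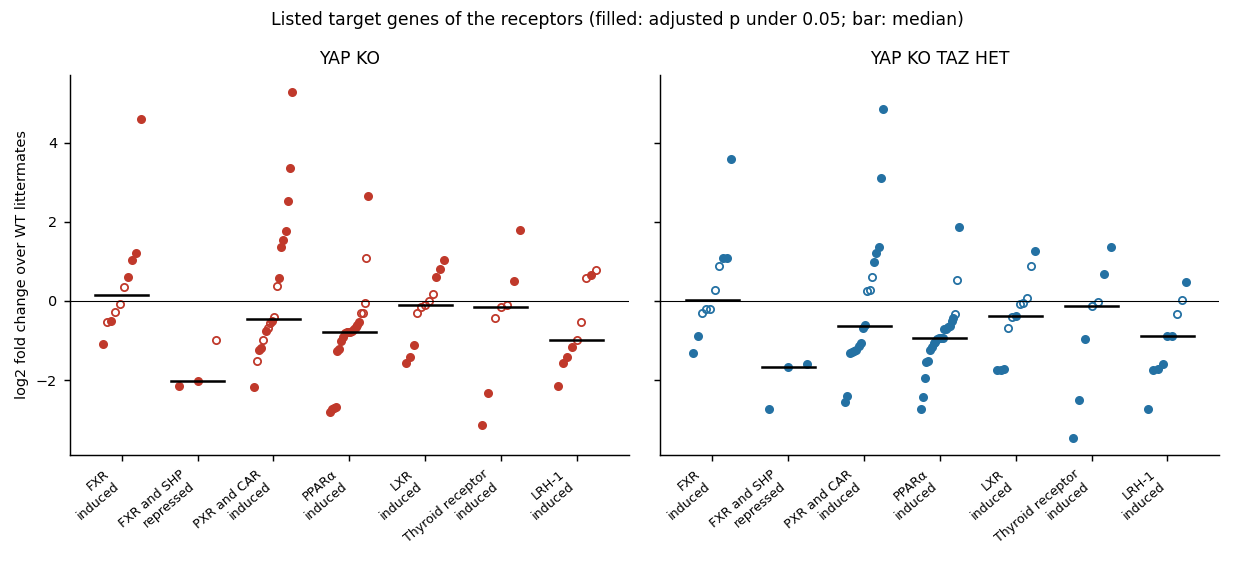
Log2 fold change over WT littermates (y axis) of each tested gene in 7 lists of receptor targets (x axis), with filled points for adjusted p under 0.05 and bars for list medians, YAP KO on the left and YAP KO TAZ HET on the right. The medians of the PPARα list are -0.782 and -0.929, whereas the PXR and CAR list holds both Cyp2b10 (-2.16 and -2.56) and Gstm3 (5.28 and 4.86).

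Sterol and hormone targets were mixed in the same way. Of the 11 genes induced by LXR, 3 rose, 3 fell and 5 did not pass in YAP KO, and 1 rose, 4 fell and 6 did not pass in YAP KO TAZ HET (medians -0.106 and -0.37). Abcg5 and Abcg8, the paired sterol exporters of the canaliculus, fell by 1.41 and 1.57 in YAP KO and by 1.71 and 1.75 in YAP KO TAZ HET. Srebf1, a transcription factor of lipogenesis, fell after scaling to 0.465 and 0.299 times its WT level. Without scaling the list counts were 3 higher and 3 lower, and 2 higher and 3 lower. Abcg1, a sterol exporter that macrophages express strongly, rose by 0.80 ± 0.19 and 1.26 ± 0.19 (limma adjusted p = 0.0124 and 0.00159), from 1.62 to 3.40 TPM in WT to 4.38 to 11.65 TPM in the knockout livers. It did so beside the rise of the macrophage markers given above, whose part in it was not tested. Of 7 genes induced by thyroid hormone receptors, Thrsp and Dio1 fell most. Thrsp, a lipogenic protein, fell by 3.14 ± 0.47 and by 3.45 ± 0.30 (limma adjusted p = 0.00153 and 0.000103), and Dio1, the deiodinase that activates thyroxine, fell by 2.33 ± 0.16 and by 2.49 ± 0.17 (limma adjusted p = 3.11e-05 and 2.84e-05). Hr and Bcl3 of the same list rose in both models, by 1.80 and 0.50 and by 1.37 and 0.69, so the list counts were 2 higher and 2 lower in YAP KO and 2 higher and 3 lower in YAP KO TAZ HET. Of 9 genes induced by LRH-1, 4 fell and 1 rose in YAP KO, and 6 fell and 1 rose in YAP KO TAZ HET (medians -0.99 and -0.877), but Cyp8b1, Abcg5 and Abcg8, which are also on the lists above, make up 3 of the 4 that fell in both. The other 2 that fell in YAP KO TAZ HET were Cyp7a1 and Nr0b2, which is itself one of the 10 receptors and is also counted on the FXR list. Apom, the fourth that fell in both, fell by 1.16 and by 0.87, and Scarb1, the HDL receptor and the 1 gene that rose, named after its values were seen, rose by 0.65 and 0.48. Without scaling 4 and 5 of the 9 were lower. Of the 3 listed estrogen receptor targets only Nrip1 was tested, which rose by 0.62 and 0.42 (limma adjusted p = 0.0268 and 0.0492). In the test of the difference between the models none of the 75 target genes tested passed (limma), with 3 at an unadjusted p under 0.05.

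The other 39 nuclear receptor genes of the mouse list set the 10 in their family. Of these, 26 were expressed enough to be tested and 13 were not. In YAP KO 7 of the 26 fell, 3 rose and 16 did not pass, and in YAP KO TAZ HET 9 fell, 2 rose and 15 did not pass, with medians of -0.16 and -0.0694. Of all tested genes 18% and 19% fell and 18.8% and 19.2% rose. Without scaling the split turned, with 3 lower and 7 higher and with 4 lower and 9 higher. All tested genes shifted upward too, with 7.13% and 7.55% lower and 37.5% and 34.8% higher. Esrrg, an orphan receptor of energy metabolism with a low level in liver, was at 1.83 to 2.09 TPM and 1.42 to 3.00 TPM in the WT groups and at 0 to 0.0318 TPM and 0 to 0.132 TPM in the knockout groups. Its log2 fold changes on the scale of TPM plus 1, which understates such low genes, were -1.68 and -1.67 (limma adjusted p = 0.000107 and 0.000397). The receptors that rose in both models were Rarg, by 0.79 and 0.98, and Pparg, the adipogenic relative of PPARα, by 1.13 and 0.60 (limma adjusted p = 0.00444 and 0.0156). Pparg was at 3.70 to 9.21 TPM in WT and 13.3 to 20.7 TPM in the knockout livers. Nr4a1, named after its values were seen, was the third to rise in YAP KO (log2 fold change 2.96 ± 0.91, limma adjusted p = 0.0346), on values of 10.8, 23.6 and 147 TPM.

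**Figure D5:**
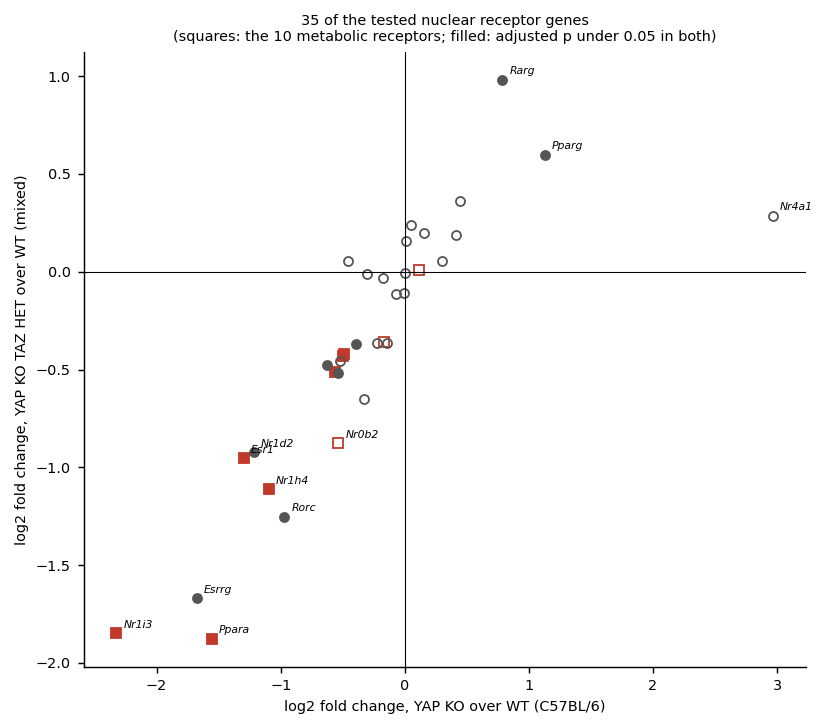
Log2 fold change of 35 of the tested nuclear receptor genes in YAP KO (x axis) and in YAP KO TAZ HET (y axis), each against its own WT littermates. Squares are the 10 metabolic receptors, circles 25 others, and filled symbols passed the test in both models, among them Nr1i3, Ppara, Nr1h4 and Esr1 with Esrrg at the lower left and Rarg and Pparg at the upper right.

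For each receptor that fell in both models the 2 genes with the most similar profile were found as those with the smallest root mean square difference of centred log2 levels over the 12 livers, among 12159 genes. For Nr1h4 they were Epb41l4b (0.0951) and Fmo1 (0.103), and for Ppara Sbk1 (0.208) and Azin1 (0.241). For Nr1i3 they were Tomm40l (0.205), the gene that overlaps it, and Acot4 (0.245). For Esr1 they were Svip (0.17) and Mup5 (0.192), the latter from a family of near-identical genes whose single counts are uncertain. The likest genes of the receptors that moved less were closer in value, Pmm2 (0.0526) and Fam53a (0.0612) for Nr1h3, Eif2b1 (0.0662) and Mcoln1 (0.082) for Rxra, and Prorp (0.0719) and Mrpl39 (0.0759) for Thrb.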

How the data were processed

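Reads were mapped by the authors to mouse genome GRCm38.p6 with CLC Genomics Workbench, and 1 table per model was deposited with the TPM of 6 libraries. The tables also hold the authors' own edgeR comparison (group means, fold changes, p-values), which was not used. The tables hold no counts, so no count test was run, and the methods state only 1 nominal read number for all samples. The members, lists and tests were chosen with earlier results of these data known. TPM values were divided by trimmed-mean factors (30% of log ratios and 5% of levels trimmed) and tested as log2(TPM/factor + 1) with limma 3.58.1 in R 4.3.3 (moderated test with a mean-variance trend), separately for each model against its WT littermates. A gene was tested where 3 or more of the fitted libraries reached 1 TPM. P-values are two-sided and Benjamini-Hochberg adjusted over all tested genes, with a threshold of 0.05. For the contrast between models all 12 libraries entered 1 fit. Exact permutation tests on TPM used scipy 1.17.1. The steps were tested on simulated data. The genes named were the 10 members, Yap1 and Wwtr1, up to 4 genes per list that passed in both models without overlap in TPM and with the largest mean change, and the 2 genes most like each member that fell in both. Others are named where a count of 5 or fewer is spelled out or where their values had been seen, as the text says. The lists hold textbook targets of FXR, FXR and SHP, PXR and CAR, PPARα, LXR, thyroid hormone receptors, LRH-1 and the estrogen receptor, other nuclear receptors, coregulators, and markers of hepatocytes, bile duct cells, endothelial cells, stellate cells and fibroblasts, macrophages, and monocytes and neutrophils. Alternatives were a pseudocount of 0.1, no filter, a filter at 5 TPM, no scaling, quantile normalization, robust shrinkage, 1 fit to all libraries, leaving out each library and, added after seeing the data, scaling to the hepatocyte markers. The hepatocyte marker Tf was not matched. A planned comparison of the receptor proteins was not run here. Values of 1 other nuclear receptor and 1 coregulator are not reported here, although both are in the counts of their lists.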

Additional observations from a re-analysis of the deposited data

Results flagged for a closer look

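The loss of Yap1 RNA differed between the models. Yap1 fell by 3.51 ± 0.18 on the log2 scale in YAP KO and by 1.93 ± 0.14 in YAP KO TAZ HET, a difference of -1.59 (95% interval -2.10 to -1.08, limma adjusted p = 0.0326 in the test of the difference itself). The YAP KO livers kept 1.67 to 3.72 TPM and the YAP KO TAZ HET livers 8.63 to 11.5 TPM. None of the 10 receptors differed between the models in the same test. For Yap1, the source line of the floxed allele, strain, litter and the second gene cannot be told apart here.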

How the results depend on the processing

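The labels give each mouse a number but no litter, so knockout mice could not be paired with their WT littermates. Without scaling, and likewise with scaling to the hepatocyte markers, the number of receptors past the threshold was 4 instead of 7 in YAP KO, and 5 instead of 9 with TAZ HET. Over the lists of targets, other nuclear receptors and coregulators together, 31 genes instead of 18 were higher and 34 instead of 52 lower with TAZ HET when values were not scaled. Of all tested genes, 34.8% instead of 19.2% were then higher and 7.55% instead of 19% lower. In YAP KO the counts by list moved the same way or stayed, with 12 instead of 16 PPARα targets lower. Of the other nuclear receptors there, 7 instead of 3 were higher and 3 instead of 7 lower. Of all tested genes there, 37.5% instead of 18.8% were higher and 7.13% instead of 18% lower. Quantile normalization ended the calls of Rxra in both models and of Nr1h3 and Nr5a2 with TAZ HET, and testing without a filter ended those of Rxra and Nr5a2 with TAZ HET. Some values that did not pass changed sign. Without scaling Nr5a2 in YAP KO became 0.18 and Nr1h3 between the WT groups 0.0204. With hepatocyte scaling Nr5a2 in YAP KO became 0.0611, the difference between the WT groups 0.047 for Nr1h3 and 0.0126 for Rxra, and that between the models 0.0582 for Nr1h3, 0.0571 for Rxra and 0.0622 for Thrb. Leaving out 1 library at a time gave Nr1i2 values of -0.0403 to 0.309 in YAP KO, -0.0675 to 0.0975 with TAZ HET, -0.0365 to 0.274 between the WT groups and -0.0607 to 0.295 between the models. Between the WT groups Nr1i3 ranged from -0.254 to 0.336 and Nr5a2 from -0.0159 to 0.151. Between the models Nr1h4 ranged from -0.121 to 0.18 and Rxra from -0.184 to 0.0769. Nr1h4, Nr1i3, Ppara and Esr1 kept direction and call in both models under each of the 14 alternatives. Of 610 alternative values in all, 549 kept their direction and side of the threshold. Another 28 changed direction, 30 lost the call and 3 gained it. The total includes the comparisons between the WT groups and between the models, where no receptor passed under any setting and no call could be lost. The files hold TPM without counts, so no limit from depth is given for low genes.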

Other observations

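Coregulators, the proteins through which the receptors switch genes on or off, mostly did not pass the test. Of 18 listed, 3 rose, 2 fell and 13 did not pass in YAP KO, and 3 rose, 1 fell and 14 did not pass in YAP KO TAZ HET, with medians of 0.0573 and -0.0248. Of all tested genes 36.7% and 38.2% passed in either direction. Without scaling 8 and 5 rose and none fell, where 37.5% and 34.8% of all tested genes rose and 7.13% and 7.55% fell. Those that rose in both models were Nrip1, Tbl1x, by 0.52 ± 0.10 and 0.38 ± 0.13 (limma adjusted p = 0.00605 and 0.046), and Tbl1xr1, by 0.37 ± 0.11 and 0.57 ± 0.15 (limma adjusted p = 0.035 and 0.0191). The latter pair encodes subunits of nuclear receptor corepressor complexes. Tbl1x was at 13.1 to 18.4 TPM in the WT livers and 22.4 to 29.4 TPM in the knockout livers, and Tbl1xr1 at 5.30 to 8.36 TPM and 11.3 to 14.4 TPM. The corepressor gene Ncor1, named after its values were seen, had log2 fold changes of -0.07 and -0.18 that did not pass (limma adjusted p = 0.651 and 0.342).

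Among the other cell markers measured beside the receptors, all 6 of the monocyte and neutrophil list rose in YAP KO and 4 of 6 in YAP KO TAZ HET, with summed levels of 9.0 to 18.6 TPM in WT and 21.8 to 70.3 TPM in the knockout livers. Of 6 stellate cell and fibroblast markers 3 rose and 1 fell in YAP KO, and 3 rose in YAP KO TAZ HET, with sums of 110 to 145 TPM in WT and 233 to 338 TPM in the knockout livers. Of 6 endothelial markers 2 fell in YAP KO, and 2 fell and 1 rose in YAP KO TAZ HET, with sums of 77.6 to 106 TPM in WT and 73.5 to 125 TPM in the knockout livers. Of the 5 bile duct cell markers tested, 2 rose in YAP KO, and 2 rose and 1 fell in YAP KO TAZ HET. Of the 7 hepatocyte markers 2 and 1 fell and none rose. Without scaling, however, 2 of them rose and 1 fell in each model. Of all tested genes 18.8% rose and 18% fell in YAP KO after scaling, and 19.2% and 19% in YAP KO TAZ HET.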
